A study of Mus musculus with 6 samples.

Results

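The Krüppel-like factor (KLF) genes described here are Klf2, Klf3, Klf4, Klf6, Klf7, Klf9, Klf10, Klf11, Klf12 and Klf13, chosen by name from the gene symbols of the array's probe sets. All 10 were measured, each by 1 probe set, among 18784 genes. Their levels come from mouse lymphomas in culture, of genotype Arf-/- with Eu-myc and Bcl-2. Arf is a tumour suppressor that restrains MDM2. Eu-myc puts the MYC oncogene under an immunoglobulin enhancer active in B cells, and Bcl-2 blocks apoptosis. The cells grew on feeder layers of irradiated Arf-/- mouse embryonic fibroblasts and carried 1 of 2 short hairpin RNAs. On 3 arrays the hairpin was Rluc.713, the control, named for a luciferase, and on 3 it was Dhx9.1241, named for the DExH-box helicase gene Dhx9. Arf loss, Eu-myc, Bcl-2 and the feeder layer were common to both groups, and the labels name no drug, no time after transduction, no age of the source animals and no separate cultures behind the replicates. Each group rests on 1 hairpin, and the spread behind every p-value is that between arrays, possibly a technical one.

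KLF proteins bind CACCC boxes and GC-rich sites in promoters through zinc fingers at their C-terminal end, and they differ in the N-terminal part that recruits coactivators or corepressors. KLF2 is known in lymphocytes for quiescence and for receptors that guide cells through blood and lymphoid tissue, and KLF3, KLF8 and KLF12 are repressors that recruit CtBP. KLF9, KLF10, KLF11, KLF13 and KLF16 recruit the corepressor SIN3A, and KLF4 is known for its part in cell cycle control. The SP factors are their close relatives and bind similar GC boxes.

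The upstream promoter sequence is shown for Klf3 and Klf2, the genes with the largest positive differences between hairpins, for Klf7, which had the largest negative one, and for Klf9, whose difference was near 0. Each is the 250 bases before the RefSeq start of the gene in assembly GRCm38.p6, 5′ to 3′ on the gene's strand. Capitals mark CACCC boxes (CACCC or its complement GGGTG) and GC boxes (GGGCGG or CCGCCC). The positions are chr5:64803271-64803520 on the plus strand for Klf3, chr8:72318812-72319061 on the plus strand for Klf2, chr1:64121390-64121639 on the minus strand for Klf7 and chr19:23140976-23141225 on the plus strand for Klf9.
Klf3: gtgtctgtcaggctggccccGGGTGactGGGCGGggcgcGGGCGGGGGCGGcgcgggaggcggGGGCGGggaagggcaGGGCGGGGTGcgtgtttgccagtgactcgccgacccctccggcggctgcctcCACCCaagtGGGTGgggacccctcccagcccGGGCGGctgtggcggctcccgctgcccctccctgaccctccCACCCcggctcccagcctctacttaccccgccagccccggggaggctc
Klf2: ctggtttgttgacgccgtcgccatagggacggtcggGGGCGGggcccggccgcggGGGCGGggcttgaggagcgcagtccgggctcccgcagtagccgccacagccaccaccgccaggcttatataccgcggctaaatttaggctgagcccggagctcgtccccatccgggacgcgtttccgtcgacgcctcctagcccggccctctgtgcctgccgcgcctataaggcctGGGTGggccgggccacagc
Klf7: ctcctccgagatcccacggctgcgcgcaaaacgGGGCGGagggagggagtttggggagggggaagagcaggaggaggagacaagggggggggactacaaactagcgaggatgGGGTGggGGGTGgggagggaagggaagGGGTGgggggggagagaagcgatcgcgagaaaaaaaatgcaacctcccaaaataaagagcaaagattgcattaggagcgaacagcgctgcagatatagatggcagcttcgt
Klf9: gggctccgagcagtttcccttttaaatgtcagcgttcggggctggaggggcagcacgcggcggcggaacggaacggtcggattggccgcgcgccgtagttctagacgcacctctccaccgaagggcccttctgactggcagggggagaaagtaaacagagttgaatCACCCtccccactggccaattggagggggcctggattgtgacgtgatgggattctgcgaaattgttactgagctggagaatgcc

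The Klf3 window held 5 CACCC boxes and 6 GC boxes, with 1 pair overlapping, and its GC content was 78.4%. Klf2 had 1 CACCC box and 2 GC boxes, Klf7 had 3 and 1, and Klf9 had 1 and 0. Of the 10 genes, 9 had an entry in the promoter table, all but Klf10. At least 1 CACCC box was found in 6 of these and at least 1 GC box in 7. Over all 32851 promoters of the table, 52.0% held a CACCC box and 32.7% a GC box on either strand of the same window. Their median GC content was 52.4%, and the box counts were not adjusted for GC content. These matches are letters in a window and were not measured for binding.

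As a check of the labels, Dhx9 lay between 12.36 and 12.48 on the log2 scale in Rluc.713 and between 11.38 and 11.46 in Dhx9.1241 (limma adjusted p = 0.000129). The titles of all Dhx9.1241 arrays name Dhx29 instead, and the log2 difference of Dhx29 was 0.04. Array medians lay between 8.43 and 8.51. Rluc.713 replicate 1 stood somewhat apart: over all genes it correlated at 0.997 with each of the other controls, which correlated at 0.999 with each other. Its correlation with Dhx9.1241 replicate 2 was also 0.997, and that with each of the other Dhx9.1241 arrays was 0.996. The values below are log2 signals made by robust multi-array average (RMA). Differences between hairpins are taken between arrays of the same probe set. Levels are set across genes only against the median of all genes and in sums over marker lists, which are a rough guide.

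The 10 genes were proposed with their levels on these same 6 arrays known, so their differences between hairpins are given as a description, without a test. The largest difference was that of Klf3, whose product represses transcription and is needed for normal B cell development. Klf3 (probe set 16599_at) read 8.89, 9.15 and 9.08 on Rluc.713 replicates 1 to 3 and 9.84, 9.89 and 9.90 on Dhx9.1241 replicates 1 to 3. Every Dhx9.1241 array lay above every control, and the gap between the groups was wider than the spread in either. The mean was 9.04 ± 0.137 (SD, n = 3) in Rluc.713 and 9.88 ± 0.0313 (SD, n = 3) in Dhx9.1241, a log2 difference of 0.84 (SE 0.071), or 1.78-fold higher.

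Klf2, the lymphocyte quiescence factor, was also higher on every Dhx9.1241 array. Klf2 (16598_at) read 9.77, 9.89 and 9.94 in the controls and 10.30, 10.20 and 10.21 in Dhx9.1241. The groups did not overlap, and the control array nearest to the Dhx9.1241 arrays was replicate 3. The means were 9.87 ± 0.0866 and 10.24 ± 0.0573 (SD, n = 3 each), a log2 difference of 0.37 (SE 0.060), or 1.29-fold higher.

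Of the 10 genes, 2 were past an adjusted p of 0.05 in the fit over all genes, both higher in Dhx9.1241 (Klf2 and Klf3), and 8 were not; among all genes 3.14% were past it, 2.07% in the higher direction and 1.07% in the lower. The same 2 were those whose groups did not overlap, where 20.1% of all genes had groups that did not overlap, 11.6% with Dhx9.1241 higher and 8.51% with it lower. Since the choice of genes used this contrast, nothing is read from the counts. The median log2 difference over the 10 was 0.05, against 0.00 over all genes tested, and 8 of the 10 differences were positive. With Rluc.713 replicate 2 or 1 Dhx9.1241 array left out, whichever it was, only Klf3 was past the threshold, a count of 1, and so it was with the replicate number as a block; without Rluc.713 replicate 1 the count was 3, with Klf11 added.

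**Figure D1:**
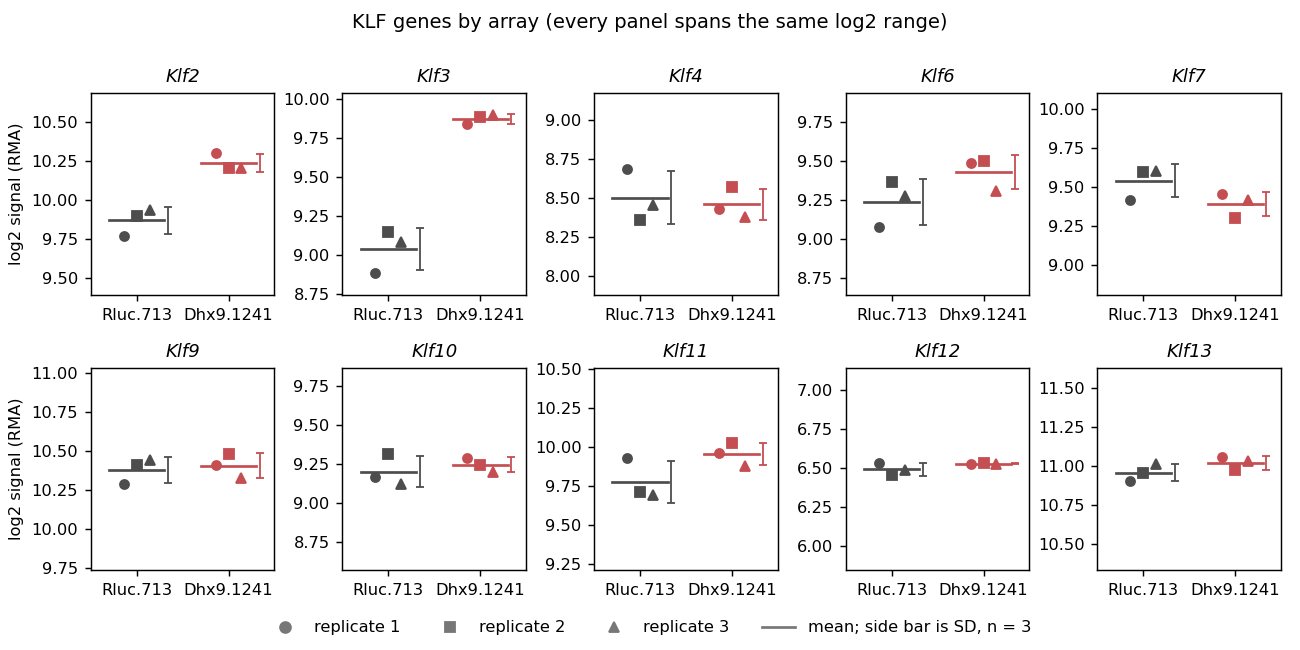
Log2 RMA signal (vertical axis) of the 10 KLF genes on each of the 3 Rluc.713 arrays (grey) and 3 Dhx9.1241 arrays (red); marker shapes are replicates, lines are group means and side bars are SD (n = 3). Axes differ in position but span the same log2 range, so distances can be compared between panels. Klf3 and Klf2 are the panels in which the groups do not overlap.

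Klf12 is, like Klf3, a gene of a CtBP-recruiting repressor, and it showed no such gap. Klf12 (16597_at) read 6.53, 6.45 and 6.49 in Rluc.713 and 6.52, 6.53 and 6.52 in Dhx9.1241, with the highest control, replicate 1, inside the narrow range of the Dhx9.1241 arrays. Its log2 difference was 0.04 (SE 0.046), and 0.02 without Rluc.713 replicate 2 and 0.06 without Rluc.713 replicate 1. It was the only 1 of the 10 whose mean lay under the median level of all genes, 8.47, and RMA tends to compress differences of dim probe sets.

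Klf4, which acts on the cell cycle and on cell identity, had the widest spread within groups. Klf4 (16600_at) read 8.69, 8.36 and 8.46 in Rluc.713 and 8.43, 8.57 and 8.38 in Dhx9.1241. All Dhx9.1241 values lay within the control range, and the highest and the lowest of the 6 values were both controls. The difference of -0.04 (SE 0.090) was smaller than either SD, 0.168 in Rluc.713 and 0.0997 in Dhx9.1241, and was positive (0.05) without Rluc.713 replicate 1.

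Klf6 and Klf7 encode closely related factors of broad expression, and the groups overlapped for both. Klf6 (23849_at) read 9.08, 9.37 and 9.28 in Rluc.713 and 9.49, 9.50 and 9.31 in Dhx9.1241. Dhx9.1241 replicate 3 lay below Rluc.713 replicate 2. The log2 difference was 0.19 (SE 0.086), falling to 0.11 without Rluc.713 replicate 1. Klf7 (93691_at) read 9.42, 9.60 and 9.61 in Rluc.713 and 9.46, 9.31 and 9.42 in Dhx9.1241. Rluc.713 replicate 1 lay among the Dhx9.1241 arrays, the log2 difference was -0.15 (SE 0.069), and without that control it was -0.21.

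Among the genes of SIN3A-recruiting factors, Klf11 had the largest difference. Klf10 and Klf11 are known as early genes of the TGF-beta response. Klf11 (194655_at) read 9.93, 9.71 and 9.69 in Rluc.713 and 9.96, 10.03 and 9.88 in Dhx9.1241. Rluc.713 replicate 1 lay inside the Dhx9.1241 range and the other controls lay below it. The log2 difference was 0.18 (SE 0.075), and 0.26 without Rluc.713 replicate 1. Klf10 (21847_at) spanned 9.120 to 9.31 in Rluc.713 and 9.19 to 9.29 in Dhx9.1241, a range held within that of the controls, with a log2 difference of 0.04 (SE 0.062). It was 0.10 without Rluc.713 replicate 2 and 0.0044 without Rluc.713 replicate 3.

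Klf9, a gene induced by glucocorticoids, and Klf13, whose product activates the chemokine gene Ccl5 in T cells, had overlapping groups. Klf9 (16601_at) spanned 10.29 to 10.44 in Rluc.713 and 10.33 to 10.48 in Dhx9.1241, and its difference of 0.03 (SE 0.063) was -0.02 without Rluc.713 replicate 1. Klf13 (50794_at) spanned 10.90 to 11.01 in Rluc.713 and 10.97 to 11.06 in Dhx9.1241, a log2 difference of 0.06 (SE 0.052) that was 0.04 without Rluc.713 replicate 1.

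The arrays of a group did not move the 10 genes in 1 direction. Rluc.713 replicate 1 was the lowest control for 6 of them (Klf2, Klf3, Klf6, Klf7, Klf9 and Klf13) and the highest for Klf4, Klf11 and Klf12. Dhx9.1241 replicate 3 was the lowest of its group for 6 genes and the highest for Klf3. Without Rluc.713 replicate 1 the difference was 0.76 for Klf3 and 0.32 for Klf2, the smallest found for either under any alternative run.

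The rest of the family, listed by name with earlier results of these data known, showed no gene past the threshold. Of 7 other KLF genes measured (Klf1, Klf5, Klf8, Klf14, Klf15, Klf16 and Klf17), 0 passed in the limma test over all genes, and 0 were at an unadjusted p under 0.05, where 14.1% of all genes were. Their differences ran from -0.01 to 0.13, with a median of 0.05. Klf17, known from the early embryo, had the largest, with 6.15, 5.86 and 6.02 in Rluc.713 and 6.27, 6.15 and 6.01 in Dhx9.1241 (difference 0.13, SE 0.089, adjusted p = 0.635), and its groups overlapped. Of 8 SP genes 0 passed, 1 had an unadjusted p under 0.05, and differences ran from -0.11 to 0.17. That gene was Sp6, at 7.69, 7.54 and 7.60 in Rluc.713 and 7.71, 7.92 and 7.72 in Dhx9.1241 (difference 0.17, SE 0.071, adjusted p = 0.315). Sp1, the founding SP factor, had a difference of 0.01 (SE 0.050, 95% interval -0.11 to 0.13). Only 3 of the 7 other KLF genes and 4 of the 8 SP genes lay at or above the median level of all genes. As RMA tends to compress differences of dim probe sets, small values here may be partly a limit of the signal. Whether Klf2 or Klf3 differed from these relatives was not tested.

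**Figure D2:**
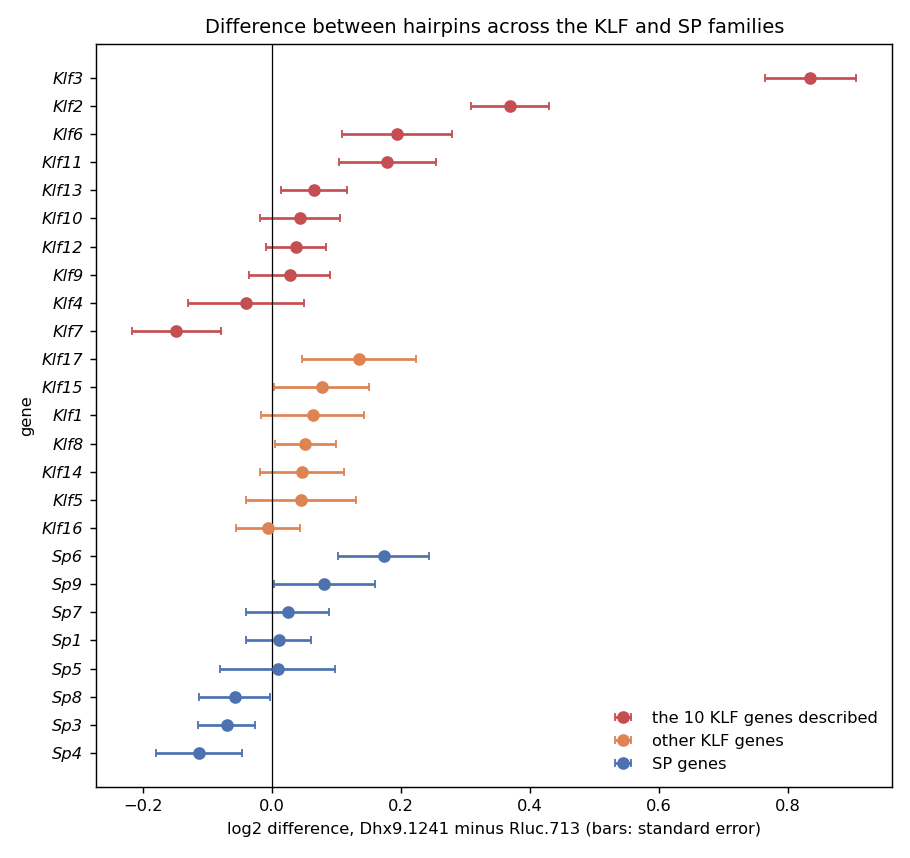
Log2 difference, Dhx9.1241 minus Rluc.713 (horizontal axis), with its standard error, for each of the 10 KLF genes (red), 7 other KLF genes (orange) and 8 SP genes (blue), 3 arrays per group. Klf3 at 0.84 and Klf2 at 0.37 lie to the right of all others, whose differences run from -0.15 to 0.19.

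Genes linked to KLF factors in lymphocytes or other cells were taken from another list, also chosen with earlier results of these data known. Its counts and p-values are therefore a description, and no link to Klf2 or Klf3 was tested. Among the 19 measured, 6 rose in Dhx9.1241, the other 13 were not called, and the median log2 difference was 0.12 against 0.00 over all genes. Over all genes 3.14% were called, 2.07% higher and 1.07% lower. Itgb7, the beta 7 integrin chain of gut homing, which KLF2 promotes in B cells, rose most. It read 8.78, 8.84 and 8.96 in Rluc.713 and 9.80, 9.71 and 9.63 in Dhx9.1241, so that all Dhx9.1241 arrays lay above all controls. The log2 difference was 0.86 (SE 0.066, limma adjusted p = 0.000762), or 1.81-fold higher.

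Lgals3, which encodes galectin-3 and is repressed by KLF3 in other cells, rose as well. It read 10.03, 10.08 and 10.00 in Rluc.713 and 10.67, 10.72 and 10.72 in Dhx9.1241, with tight groups far apart (log2 difference 0.67, SE 0.048, adjusted p = 0.00055). Cdkn1a, the gene of the cell cycle inhibitor p21 and a target of both KLF factors and p53, read 11.81, 12.00 and 12.03 in Rluc.713 and 12.37, 12.46 and 12.41 in Dhx9.1241 (log2 difference 0.47, SE 0.067, adjusted p = 0.00954). Again the groups did not overlap.

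The other 3 that rose, named after their values were seen, were Ccl5 (0.45, SE 0.072, adjusted p = 0.0154), the lymphocyte egress receptor gene S1pr1 (0.32, SE 0.058, adjusted p = 0.0253) and the chemokine receptor gene Ccr7 (0.23, SE 0.049, adjusted p = 0.0452). S1pr1 is the best known KLF2 target in lymphocytes; it read 11.74, 11.79 and 11.67 in Rluc.713 and 11.97, 12.09 and 12.10 in Dhx9.1241, with no overlap. Among those that did not pass, the complement receptor gene Cr2 stood at -0.36 (SE 0.086, adjusted p = 0.0687) and was called lower with a variance trend (0.0315), with array weights (0.00436) and without Rluc.713 replicate 1 (0.00578). Also not called were the interleukin 7 receptor gene Il7r, at -0.23 (SE 0.077, adjusted p = 0.203) and the cyclin gene Ccnd1, at 0.00 (SE 0.046). Leaving out 1 Dhx9.1241 array left 3 of the 19 called without replicate 1 or 2 and 2 without replicate 3. Itgb7 and Lgals3 passed in 6 of 6 fits without 1 array, Cdkn1a in 5, Ccl5 in 3, and S1pr1 and Ccr7 in 1, the fit without Rluc.713 replicate 1. With the replicate block 4 of the 6 were called, without S1pr1 (adjusted p = 0.0805) and Ccr7 (0.167), and Ccr7 was also lost with arrays centred on their median (0.118).

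**Figure D3:**
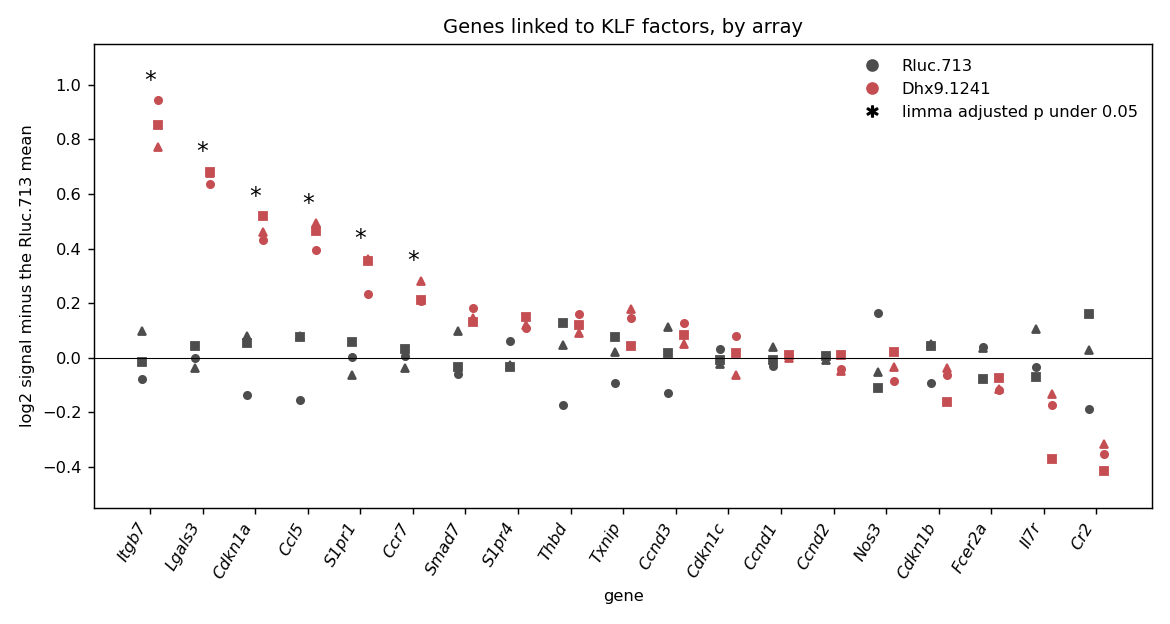
Log2 signal minus the Rluc.713 mean of each gene (vertical axis) for 19 genes linked to KLF factors, on the 3 Rluc.713 (grey) and 3 Dhx9.1241 (red) arrays, with the replicates as marker shapes; asterisks mark a limma adjusted p under 0.05. The 6 marked genes, Itgb7 to Ccr7, are higher on all Dhx9.1241 arrays, while Cr2 and Il7r lie at the lower end with mean differences of -0.36 and -0.23.

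Of 16 cofactors and ubiquitin ligases that act with KLF proteins, 1 rose and 1 fell, and 14 were not called, where 3.14% of all genes were. Hdac1, the histone deacetylase of SIN3 and other repressor complexes, read 12.77, 12.79 and 12.84 in Rluc.713 and 12.41, 12.48 and 12.56 in Dhx9.1241 (log2 difference -0.32, SE 0.055, adjusted p = 0.0194). Btrc, the substrate receptor of a ubiquitin ligase, read 11.56, 11.52 and 11.55 in Rluc.713 and 11.81, 11.77 and 11.82 in Dhx9.1241 (0.26, SE 0.046, adjusted p = 0.0245). In both genes the groups did not overlap. Sin3a had a difference of 0.00 (SE 0.051, 95% interval -0.12 to 0.11), and the CtBP gene Ctbp1 one of -0.13 (SE 0.045, adjusted p = 0.203). Neither Hdac1 nor Btrc was called without Rluc.713 replicate 2 or 3 or without Dhx9.1241 replicate 1 or 2, a count of 0, nor with the replicate block, and without Dhx9.1241 replicate 3 only Hdac1 was called, a count of 1.

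No gene passed among 17 upstream regulators, which include the ERK5 and MEF2 genes that drive Klf2, the FOXO genes and the SMAD genes of the TGF-beta pathway. By an unadjusted limma p under 0.05 there were 3, of which 2 lay higher and 1 lower, against 14.1% of all genes. Foxo3, a transcription factor of resting lymphocytes, had the largest difference, with 9.98, 10.05 and 10.02 in Rluc.713 and 10.20, 10.24 and 10.15 in Dhx9.1241 (0.18, SE 0.049, adjusted p = 0.109). Its groups did not overlap. Mapk7, which encodes ERK5, stood at 0.10 (SE 0.055). The MEF2 genes went both ways: Mef2a at 0.14 (SE 0.048, adjusted p = 0.201), Mef2c at -0.15 (SE 0.048, adjusted p = 0.172) and Mef2d at -0.04 (SE 0.049). Mef2a and Mef2c had groups without overlap and were called in limma with a variance trend (adjusted p = 0.0407 and 0.0181). In 5 of the 17 the groups did not overlap, 3 with Dhx9.1241 higher and 2 with it lower, against 20.1% of all genes.

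Several KLF genes are immediate early genes, induced within a short time of a signal. Genes of a list of other such genes and their relatives, not all of them quickly induced, did not share a direction. Of 23 measured, 1 fell and 22 did not pass, where 1.07% of all genes fell, and the median difference was 0.01. By an unadjusted limma p under 0.05, 4 lay higher and 5 lower, against 14.1% of all genes in either direction. In 10 of the 23 the groups did not overlap, against 20.1% of all genes. The median absolute difference was 0.13, against 0.054 over all genes. The gene that fell was Jund, of the AP-1 family, from 10.97, 11.00 and 11.02 in Rluc.713 to 10.81, 10.73 and 10.79 in Dhx9.1241 (-0.22, SE 0.048, adjusted p = 0.0489). It passed in 1 of 6 fits without 1 array, that without Rluc.713 replicate 1, where 2 genes of the list were called. Without Dhx9.1241 replicate 3 the 1 gene called was another, Dusp1, and without Rluc.713 replicate 2 or 3 or Dhx9.1241 replicate 1 or 2 the count was 0.

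Glucocorticoid and clock genes, the company in which Klf9 is usually induced, included none that passed among 16 measured in the limma test; unadjusted, 4 had a p under 0.05, of which 3 lay higher and 1 lower, against 14.1% of all genes. The largest difference was that of the kinase gene Sgk1, with 8.66, 8.93 and 9.13 in Rluc.713 and 9.37, 9.28 and 9.42 in Dhx9.1241 (0.45, SE 0.108, adjusted p = 0.071). Its groups did not overlap, although the controls were widely spread. Without Rluc.713 replicate 1, 2 genes of the list were called, Sgk1 and Per3, and without Rluc.713 replicate 3, 1 was, Sgk1.

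The genes most like Klf3 and Klf7 over the arrays were found by the root mean square difference between values centred on each gene's own mean, over 6 arrays and 18783 other genes. Nearest to Klf3 were Rragd, which encodes a Rag GTPase of amino acid sensing (0.0314 on the log2 scale), Lgals3bp, the gene of a galectin-3 binding protein (0.0528), and the polo-like kinase gene Plk2 (0.0539), where the median gene lay 0.433 away. Rragd read 7.56, 7.86 and 7.75 in Rluc.713 and 8.54, 8.56 and 8.51 in Dhx9.1241, with replicate 1 lowest among its controls as for Klf3. Nearest to Klf7 were Tbc1d5 (0.0112), Snap29 (0.0115) and Ppp1r15b (0.0116), where the median gene lay 0.135 away. Over 6 arrays and many genes, close matches are common, and the measure says how alike the values were and no more.

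**Figure D4:**
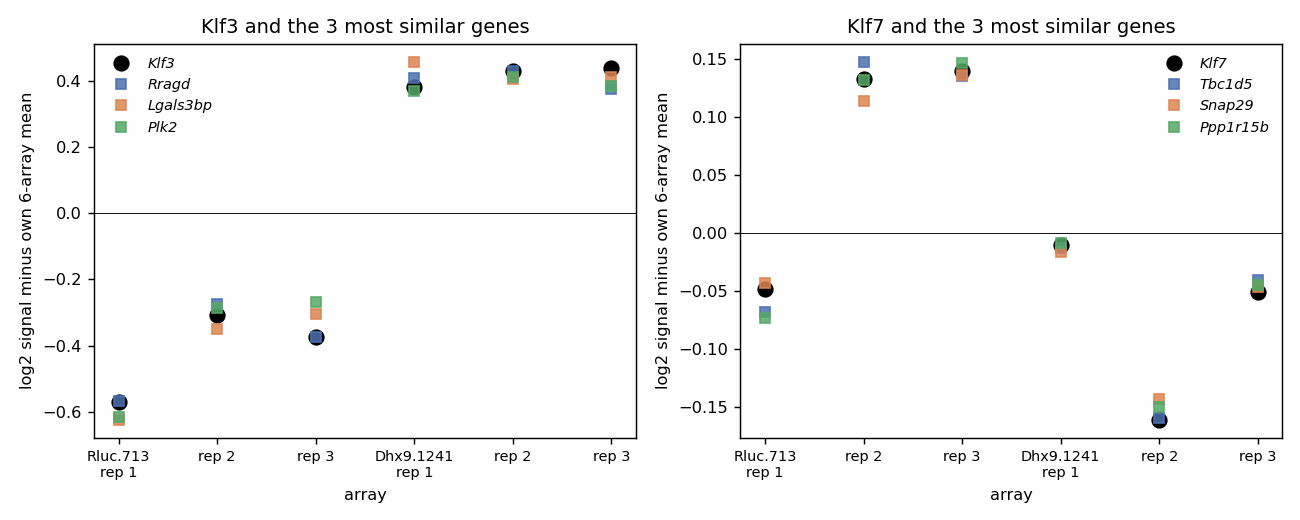
Log2 signal minus each gene's own mean over the 6 arrays (vertical axis), by array, for Klf3 (left, black) and Klf7 (right, black) with their 3 most similar genes (coloured squares). In the left panel all 4 genes are lowest on Rluc.713 replicate 1 and lie above their mean on the 3 Dhx9.1241 arrays; the right panel has a narrower scale.

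Markers of the labelled cell type were bright: 9 of 10 measured B cell markers lay at or above the median level of all genes, and Cd79a stood at 13.80 in Rluc.713 and 13.69 in Dhx9.1241. The sum of the B cell marker signals on the linear scale was 70984 to 75550 in Rluc.713 and 65200 to 68371 in Dhx9.1241, lower and without overlap. Of the 10 markers 1 fell, Vpreb3, against 1.07% of all genes. Of the 10 differences 9 were negative, all but that of Ms4a1 (0.31). In 5 genes the groups did not overlap with Dhx9.1241 lower, where 8.51% of all genes had such groups. KLF genes are also expressed by fibroblasts and myeloid cells, and those marker lists moved as follows. Of 17 fibroblast markers, 1 fell, Cav1 (adjusted p = 0.0485), against 1.07% of all genes, and 16 did not pass. The Cav1 call was lost in all 6 fits without 1 array (adjusted p from 0.0543 to 0.19), with the block (0.117) and with a variance trend (0.0639). The fibroblast sum was 5225 to 5843 in Rluc.713 and 5213 to 5277 in Dhx9.1241. Of 13 myeloid markers, 5 fell, led by Lyz2, again against 1.07% of all genes, 0 rose and 8 did not pass. The myeloid sum was 10209 to 10815 in Rluc.713 and 8824 to 9279 in Dhx9.1241. The 5 became 2, Lyz2 and Tyrobp, without Dhx9.1241 replicate 3, and 3 without Rluc.713 replicate 2 or Dhx9.1241 replicate 1 or 2. Fcgr3 was called higher with a variance trend (adjusted p = 0.013), with cyclic loess (0.0376) and with quantile normalization repeated (0.0427). For T and NK cells, 0 of 11 markers passed the limma test. At an unadjusted p under 0.05 there was 1, against 14.1% of all genes: Klrb1c (log2 difference 0.22), named after its value was seen. Linear sums weigh bright probe sets most. The mean of Lyz2 went from 10.66 in Rluc.713 to 9.35 in Dhx9.1241, and that of Vpreb3 from 13.04 to 12.47. Of the 13 myeloid differences, 11 were negative and 2 positive, Itgam (0.21) and Fcgr3 (0.22), both without overlap of the groups. As sums, the B cell and myeloid markers were lower in Dhx9.1241, where Klf2 and Klf3 were higher, while the fibroblast sums overlapped between the groups. The part of other cells in the KLF values was not tested. In bulk RNA fewer cells of a type and less RNA per cell cannot be told apart.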

How the data were processed

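RNA from 3 Rluc.713 and 3 Dhx9.1241 samples was labelled with a 3′ in vitro transcription kit and hybridised to Affymetrix arrays, as the labels' protocols state. Per array and probe set, the deposited file holds a log2 signal made by RMA, per the submitters' processing notes. For its version and the genome build, the sources used here give nothing. The probe set names of the KLF genes described are their Entrez numbers followed by _at, as in probe sets defined by gene. The release of that definition is not given. Of 21212 probe sets, 18786 had 1 gene symbol, 6 several and 2420 none in the platform annotation. Symbols were updated by Entrez number for 18775 through a RefSeq gene table (GRCm38.p6). The brightest probe set was kept for the 2 genes with more than 1, leaving 18784 genes, with no filter.

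Dhx9.1241 was compared with Rluc.713 for all genes with limma 3.58.1 (lmFit, eBayes; R 4.3.3), two-sided, without covariates. P-values were adjusted by Benjamini-Hochberg over all genes and called under 0.05. The fit was tested on simulated data. With 3 arrays a group, an exact permutation test of 1 gene could not go below 0.1, and their number limits the precision.

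The KLF genes and all lists were chosen with earlier results of these data known. Of 177 listed genes 167 were measured; the others were not analysed here. Genes named were the 10 KLF genes, Dhx9 and Dhx29, up to 3 called genes with the largest change in each list (or the 1 with the largest change) and the 3 genes most like the KLF genes with the largest rise and fall; others are examples. Alternatives were repeated quantile normalization, median centring, cyclic loess, a filter on dim genes, array weights, a variance trend with robust estimation, a block for the replicate number, all probe sets, and leaving out each array.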

Additional observations from a re-analysis of the deposited data

How the results depend on the processing

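The differences of Klf2, Klf3, Klf6, Klf7, Klf10, Klf11, Klf12 and Klf13 kept their sign under all alternatives run, with Klf3 between 0.76 and 0.89 and Klf2 between 0.32 and 0.40. The dim-gene filter, the variance trend, the block and the test of every probe set leave a difference unchanged, so they could not turn a sign. Nor could leaving out 1 array turn it for Klf2 or Klf3, whose groups did not overlap. The sign of Klf4 turned with array weights (0.0366), without Rluc.713 replicate 1 (0.0524) and without Dhx9.1241 replicate 3 (0.00019), and that of Klf9 with array weights (-0.00912), without Rluc.713 replicate 1 (-0.019) and without Dhx9.1241 replicate 2 (-0.0112); without 1 array Klf4 ranged from -0.111 to 0.0524 and Klf9 from -0.019 to 0.068; the cause was not tested. With the dim-gene filter 991 of all genes were called, with a variance trend 1139, with array weights 1211 and with the replicate block 264, against 590. The block left 1 KLF gene of the 10 (Klf3), 4 KLF-linked genes, 0 cofactors and 0 immediate early genes called. Deviations of same-numbered arrays from their group means correlated at -0.27, -0.34 and 0.24. These values show no common pairing, but with 3 arrays a group they cannot exclude one. Cofactors called were 1 with arrays centred on their median. Upstream regulators called were 1 with the dim-gene filter and 2 with a variance trend. Immediate early genes called were 2 after repeated quantile normalization and after cyclic loess, 0 with arrays centred or with every probe set tested, 5 with the filter or the trend and 4 with array weights. Glucocorticoid and clock genes called were 2 with the filter, the trend or array weights. Without 1 array, the calls ranged from 205 to 896 for all genes, 1 to 3 for the 10 KLF genes, 0 to 2 for cofactors, 2 to 7 for KLF-linked genes, 0 to 2 for immediate early genes and 0 to 2 for glucocorticoid and clock genes. Such fits have fewer arrays, which by itself lowers power. Klf12 fell under the dim-gene filter and has no value there; detection calls were not used here, so how far background limits it was not measured.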
